A study of Mus musculus with 5 samples.

Results

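Thy_4 is 1 of the 5 thymus clusters that the authors made from Vγ6 γδ T cells and tabulated as Thy_1 to Thy_5, beside 1 Skin cluster and 2 clusters of the peripheral lymph nodes (pLN_1 and pLN_2). Its values are the Thy_4 column of the authors' table of mean normalized expression, in which every column sums to 10000. The column held 9404 genes above 0 of the 10721 in the table. Each number called a level below is such a mean, per 10000, and compares columns for 1 gene, never genes with each other. The table gives neither an error nor a number of cells, and each library is the only one of its kind, so differences are given by size, with no test. The clusters were drawn on expression in the same cells, so every difference between columns is a description.

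The thymus cells of the study were Vγ6 γδ T cells sorted by flow cytometry from C57BL/6 mice aged 8 weeks, after antibody and complement had lysed the CD4 and CD8 cells in 30 minutes at 37 °C. Vγ6 cells of ear skin came from C57BL/6 mice of the same age by collagenase digestion for 75 minutes at 37 °C. Those of the peripheral lymph nodes, also at 8 weeks, had no such incubation stated. A further Vγ6 library mixed mice aged 8 to 10 weeks without a map from cells to mice: ear skin of TcrdH2BeGFP mice, thymus of ACT-FLPe mice and peripheral lymph node of TcrdCreER mice. Column, tissue and preparation therefore differ together between Thy_4 and the Skin or pLN columns. How many animals gave each library is not given in the sources used here.

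Vγ6 cells arise in the thymus before birth and are best known as producers of interleukin-17 that settle in skin and other barrier tissues. Killer cell receptors of the Klr genes are C-type lectin-like proteins, of which Klrd1 (CD94) pairs with Klrc proteins (NKG2) to read class I molecules, and the Klra genes encode the Ly49 receptors. Natural killer (NK) cells use them to set the threshold for killing, and some T cells carry them too. Killing itself runs through granules that hold perforin and granzymes, or through the death ligand Fasl.

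Set against the other 4 Thy columns, Thy_4 stood out by its chemokine Ccl5, by killer receptors and their signalling adaptors, and by a few granule genes. A gene was called higher when its Thy_4 level was at least 2 times the highest of the other 4 Thy columns, and lower when it was at most 0.5 of the lowest, with at least 0.5 per 10000 in the higher of the values compared. By this rule 54 of 3734 genes were higher, a background of 1.45%, and 7 of 2759 were lower, a background of 0.254%. Of the 54, 50 had their highest level of all 8 columns in Thy_4, and 45 were at least 2-fold over all 7 other columns. The levels of the 54 genes summed to 171 in Thy_4, against 22.4 in Thy_1, 17.8 in Thy_2, 24.1 in Thy_3 and 9.39 in Thy_5. Outside the thymus the same sum was 26.3 in Skin, 14.3 in pLN_1 and 17.2 in pLN_2. Thy_4 was thus the only column of the 8 with a high summed level of these genes, which were picked for being high there.

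**Figure D1:**
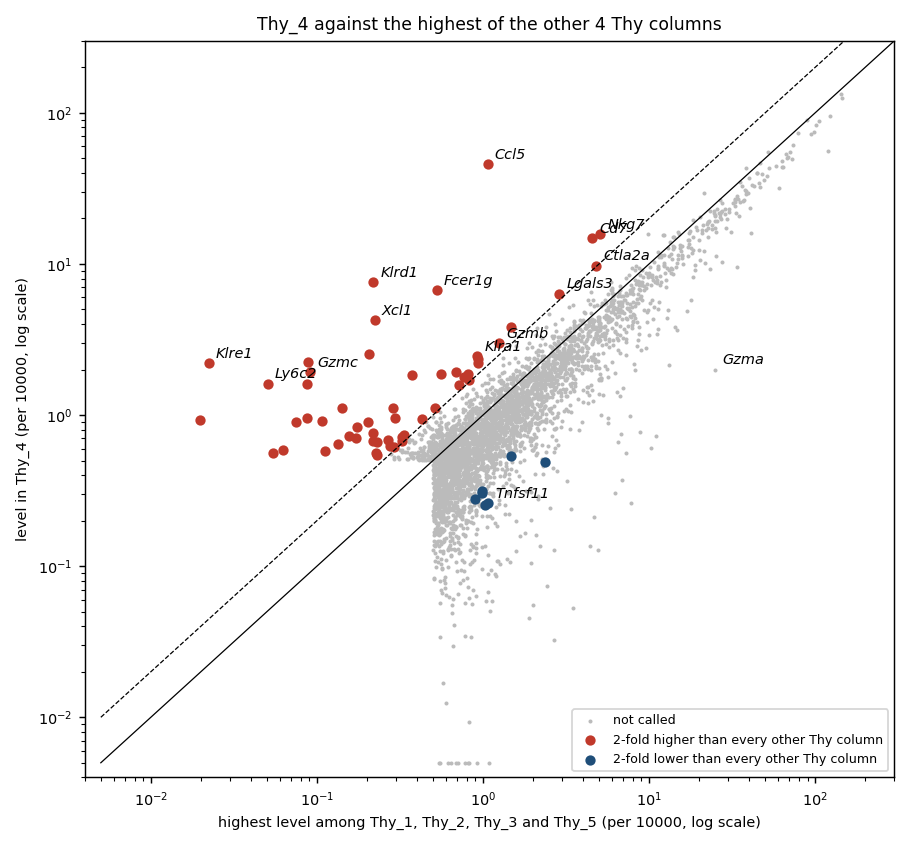
Each point is a gene with at least 0.5 per 10000 in 1 of the 2 values. The vertical axis is its level in Thy_4 and the horizontal axis the highest level among the other 4 Thy columns, both per 10000 on log scales with values under 0.005 drawn at 0.005. The solid line marks equal levels and the dashed line 2-fold. The 54 genes called higher (red) lie above the dashed line, Ccl5 at the top with 45.8 in Thy_4, and Gzma lies far below the solid line.

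Both measured secreted chemokines were higher in Thy_4. Ccl5, which draws T cells, NK cells and monocytes and is kept as messenger RNA by memory and killer lymphocytes, had a level of 45.8 in Thy_4, against 1.07 in Thy_1, 0.628 in Thy_2, 0.626 in Thy_3 and 0.643 in Thy_5. It stood at 2.47 in Skin, 0.621 in pLN_1 and 1.63 in pLN_2. Thy_4 therefore held 43.0 times the highest other Thy level, and no other column came near it. Xcl1, the chemokine that draws cross-presenting dendritic cells, had 4.23 in Thy_4, against 0.122 in Thy_1, 0.0240 in Thy_2, 0.223 in Thy_3 and 0.0160 in Thy_5, a ratio of 19.0. Outside the thymus Xcl1 did not pass 0.0448, its Skin level. These were the only 2 measured members of the list of 10 secreted chemokines. In the authors' deposited table, Ccl5 was detected in 63.4% of Thy_4 cells, against 10.2% of other cells. In the authors' deposited table, Xcl1 was detected in 31.4% of Thy_4 cells, against 0.7% of other cells. On GRCm38 (GENCODE vM21), Ccl5 is a protein-coding gene at chr11:83525778-83530518 on the minus strand and Xcl1 lies at chr1:164931644-164935527, also on the minus strand.

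Killer receptors were the broadest group. Of 19 measured members of the list of killer and NK receptors, 13 were higher and 0 lower, against the background of 1.45% of all genes higher, and the median log2 ratio of Thy_4 to the median of the other 4 Thy columns (0.1 added to each) was 3.28. Over all genes the median was -0.0019. Klrd1, the shared CD94 chain, had a level of 7.55 in Thy_4, against 0.219 in Thy_1, 0.0241 in Thy_2, 0.128 in Thy_3 and 0.0852 in Thy_5, and at most 0.132 outside the thymus (pLN_2). Klre1, an NK receptor chain that pairs with other lectin-like chains, had 2.21 in Thy_4, against 0.0223 in Thy_1, 0.0187 in Thy_3 and 0.0111 in Thy_5, and was listed at 0 in Thy_2, pLN_1 and pLN_2. Its ratio of 99.1 was the largest of the named genes. Klrc1, the NKG2A chain that partners Klrd1 in an inhibitory receptor, had 2.54 in Thy_4, against 0.207 in Thy_2, the highest other Thy column, and 0.442 in Skin. Klrc2, the activating NKG2C chain, had 0.896 in Thy_4 and 0.0744 in Thy_2, the highest other Thy column. These 4 chains thus stood between 12 and 99.1 times above every other Thy column. Klrc1 and Klrc2 are close in sequence, as are the Klra genes, so the division of reads between such copies is uncertain.

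The Ly49 receptors showed 1 partial exception. Klra9 had a level of 2.24 in Thy_4 and 0.0881 in Thy_3, the highest other Thy column, and was listed at 0 in Skin, pLN_1 and pLN_2. Klra5 had 0.927 in Thy_4 and 0.0197 in Thy_3. Klra3 had 0.721 in Thy_4 and 0.156 in Thy_3, and Klra7 had 0.575 in Thy_4 and 0.112 in Thy_5. Klra1 had 2.44 in Thy_4, yet Thy_3 reached 0.925, so its ratio was 2.64. Thy_3 was the next highest column for 4 of these 5 genes. Klrb1c, which encodes NK1.1 in C57BL/6 mice, had 0.951 in Thy_4 and 0.0871 in Thy_3, and Slamf7, a co-receptor of NK cells outside the list, had 0.561 in Thy_4 and 0.0542 in Thy_3. The activating receptor Klrk1 (NKG2D) did not follow them: its level was 2.39 in Thy_4, against 0.161 in Thy_1, 3.63 in Thy_2, 0.160 in Thy_3 and 0.303 in Thy_5, and it was highest in Skin at 7.65. Cd7, a surface protein of T and NK cells, had 14.8 in Thy_4, against 4.55 in Thy_2 and 3.88 in pLN_1, a ratio of 3.26 to the highest other Thy column.

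The adaptors that carry the signals of such receptors into the cell went the same way, apart from Hcst. Fcer1g, the signalling chain of NK receptors and Fc receptors that can also serve a T cell receptor complex, had a level of 6.70 in Thy_4, against 0.10 in Thy_1, 0.0605 in Thy_2, 0.526 in Thy_3 and 0.0576 in Thy_5. Tyrobp (DAP12), the partner of activating Ly49 receptors, had 1.11 in Thy_4 and 0.141 in Thy_5, the highest other Thy column, with 0.474 in pLN_2. Hcst (DAP10), the partner of Klrk1, had 4.23 in Thy_4, against 3.85 in Thy_2, 3.72 in Thy_3 and 5.42 in Skin, and was not called. In the authors' deposited table, Klrd1 was detected in 59.5% of Thy_4 cells, against 1.8% of other cells. In the authors' deposited table, Fcer1g was detected in 47.1% of Thy_4 cells, against 1.9% of other cells, and Klre1 in 19.6%, against 0.2%.

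**Figure D2:**
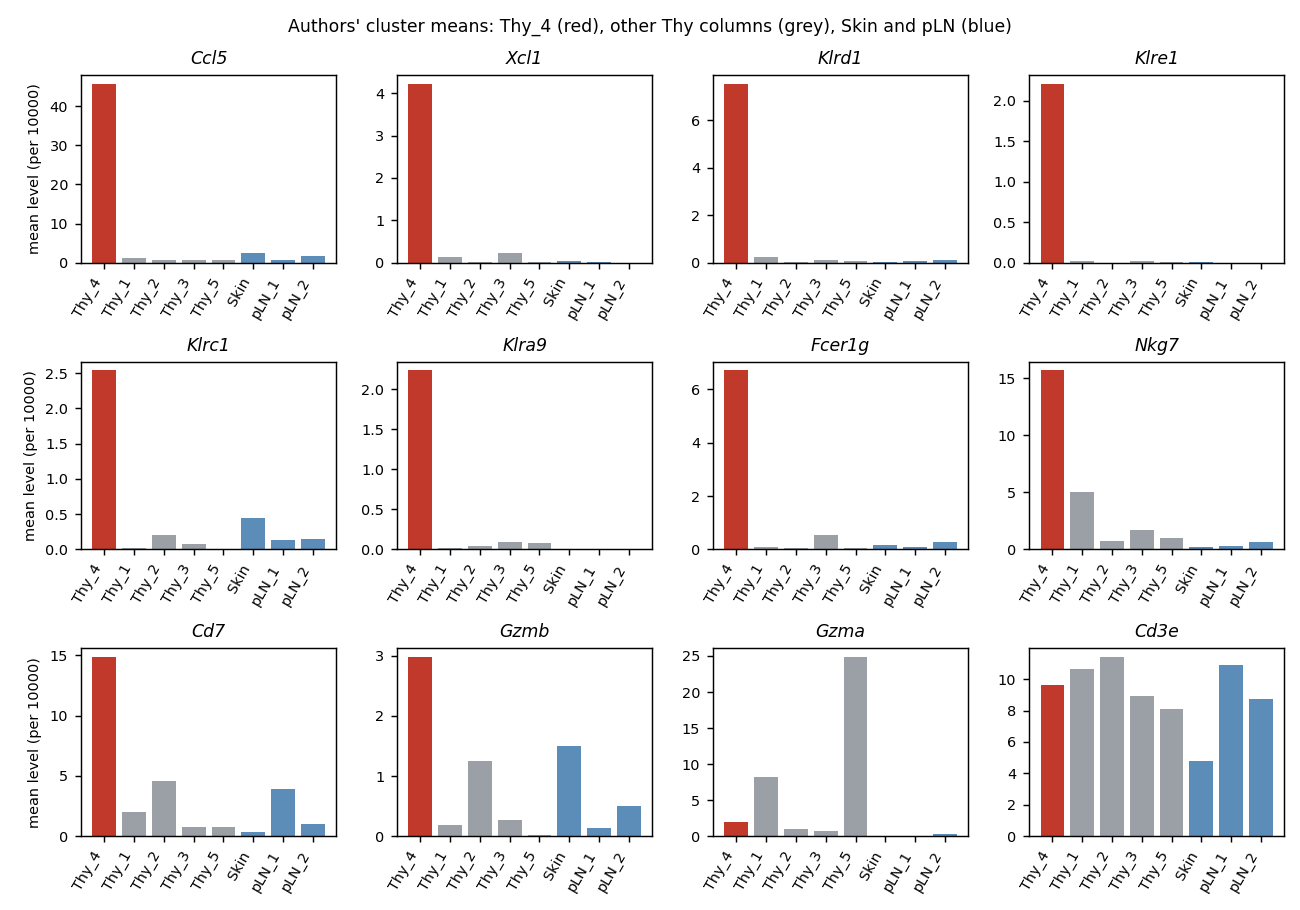
Each panel gives 1 gene, with the authors' mean level per 10000 as a bar from 0 for Thy_4 (red), the other 4 Thy columns (grey) and Skin, pLN_1 and pLN_2 (blue). Single means are drawn, with no error available. The red bar is the tallest for 10 of the 12 genes, Ccl5 reaching 45.8, while Gzma is tallest in Thy_5 at 24.8 and Cd3e is similar across the Thy columns.

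Of the 54 genes called higher, 11 lie on chromosome 6, and 10 of these are Klr genes in 1 stretch. These 10 are among the 13 killer receptors and adaptors already counted, so their position is no separate result. The share of all genes on chromosome 6 was not counted, so the 11 has no background beside it. From Klrb1a to Klra1 (GRCm38, chr6:128609227-130386874, 1778 kb), the table holds 22 genes with a position, of which 15 reached 0.5 per 10000 in a Thy column. Within it 10 of the 11 measured Klr genes were higher, against 1.45% of all genes, and Klrk1 was the exception. Klrk1 sits among them, in the table's genes between Klrd1 (129591782-129598775, plus strand) and Klrc2 (129647496-129660689, minus strand), so neighbouring genes of the stretch did not share 1 pattern. The other 4 measured genes of the stretch, which are no Klr genes, were not called. Among those, Gabarapl1, an autophagy gene that adjoins Klre1, had a level of 0.563 in Thy_4 and 0.377 in Thy_1, and Cd69, an early activation marker, had 0.779 in Thy_4 and 1.57 in Thy_2. These 2 genes were picked after their values had been seen.

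**Figure D3:**
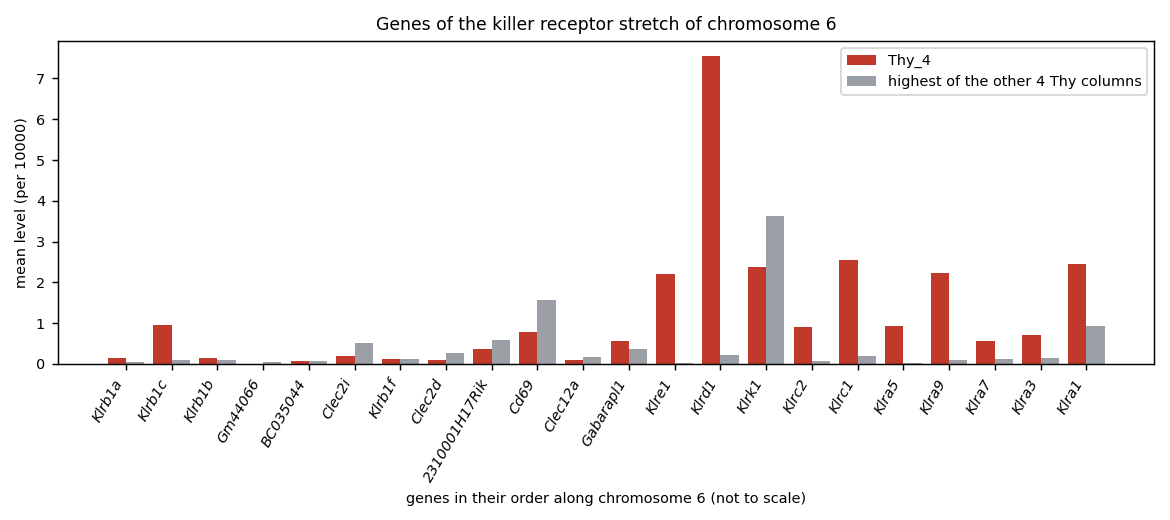
Bars give the mean level per 10000, from 0, in Thy_4 (red) and in the highest of the other 4 Thy columns (grey), for 22 genes in their order along chromosome 6, evenly spaced. For each of the 10 Klr genes called higher the red bar is at least 2 times the grey one, from Klra7 at 0.575 to Klrd1 at 7.55. Klrk1 between them has the taller bar in grey.

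Promoters are shown for 6 genes called higher together: 3 receptors (Klre1, Klrc1, Klra9), 1 adaptor (Fcer1g), 1 chemokine (Xcl1) and 1 granule gene (Nkg7). Each runs from 250 bases before to 50 after the RefSeq start (GRCm38.p6), 5′ to 3′ on the strand of the gene. For a gene with more than 1 RefSeq promoter the first by position was used, as for Klre1, which has 2. The Klre1 window shown lies inside the gene as GENCODE vM21 places it, from 129577905. The positions are chr6:129577963-129578262 on the plus strand for Klre1, chr6:129678924-129679223 on the minus strand for Klrc1, chr6:130193063-130193362 on the minus strand for Klra9, chr1:171234300-171234599 on the minus strand for Fcer1g, chr1:164935473-164935772 on the minus strand for Xcl1 and chr7:43436888-43437187 on the plus strand for Nkg7. Capitals mark the T-box core TCACAC or its reverse complement GTGTGA, and the Runx core TGTGGT or its reverse complement ACCACA.
Klre1: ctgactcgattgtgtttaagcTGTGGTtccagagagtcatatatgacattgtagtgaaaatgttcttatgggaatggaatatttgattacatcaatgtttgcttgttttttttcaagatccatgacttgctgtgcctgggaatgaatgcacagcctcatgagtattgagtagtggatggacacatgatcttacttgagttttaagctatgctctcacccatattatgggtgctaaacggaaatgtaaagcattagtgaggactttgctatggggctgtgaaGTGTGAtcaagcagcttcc
Klrc1: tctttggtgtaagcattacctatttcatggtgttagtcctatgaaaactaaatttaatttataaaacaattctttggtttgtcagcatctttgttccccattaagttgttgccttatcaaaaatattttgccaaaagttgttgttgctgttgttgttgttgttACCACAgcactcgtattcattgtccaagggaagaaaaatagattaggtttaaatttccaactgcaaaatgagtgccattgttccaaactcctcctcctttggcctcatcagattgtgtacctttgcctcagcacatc
Klra9: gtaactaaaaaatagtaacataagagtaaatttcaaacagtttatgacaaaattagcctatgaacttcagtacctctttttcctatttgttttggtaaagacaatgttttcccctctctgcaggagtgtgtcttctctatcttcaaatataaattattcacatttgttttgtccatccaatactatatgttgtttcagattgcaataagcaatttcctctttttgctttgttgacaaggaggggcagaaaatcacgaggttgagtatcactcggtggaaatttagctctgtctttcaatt
Fcer1g: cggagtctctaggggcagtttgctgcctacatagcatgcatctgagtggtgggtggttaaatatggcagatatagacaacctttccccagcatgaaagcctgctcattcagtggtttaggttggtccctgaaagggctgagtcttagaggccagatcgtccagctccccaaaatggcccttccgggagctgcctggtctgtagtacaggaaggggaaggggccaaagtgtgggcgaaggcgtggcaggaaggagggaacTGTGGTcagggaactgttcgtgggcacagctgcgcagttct
Xcl1: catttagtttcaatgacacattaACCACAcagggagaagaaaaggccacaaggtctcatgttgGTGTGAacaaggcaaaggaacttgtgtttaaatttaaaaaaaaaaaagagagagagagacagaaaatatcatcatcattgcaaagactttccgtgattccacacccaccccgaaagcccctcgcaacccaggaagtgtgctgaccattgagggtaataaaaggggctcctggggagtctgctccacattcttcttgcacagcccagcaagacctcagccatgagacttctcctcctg
Nkg7: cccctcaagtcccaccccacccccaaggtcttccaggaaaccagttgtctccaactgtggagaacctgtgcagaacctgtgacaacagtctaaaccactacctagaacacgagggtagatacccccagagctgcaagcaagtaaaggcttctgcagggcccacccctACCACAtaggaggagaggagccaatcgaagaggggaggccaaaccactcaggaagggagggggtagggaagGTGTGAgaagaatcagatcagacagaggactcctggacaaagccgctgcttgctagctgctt
Klre1, Xcl1 and Nkg7 hold both cores, Klrc1 and Fcer1g the Runx core alone, and Klra9 neither. T-box factors such as Tbx21 and the factor Runx3 are known regulators of killer lymphocyte genes. RefSeq promoters matched 46 of the 54 genes called higher. The Runx core was in 15 of these 46 promoters (32.6%), against 4589 of all 27025 promoters (17.0%), and the T-box core in 9 of 46 (19.6%), against 3904 of 27025 (14.4%). Each core was searched on both strands, and a match is only a run of letters in this window. Tbx21 had a level of 0.203 in Thy_4 and 0.0584 in Thy_3, the next highest Thy column, both under the 0.5 per 10000 that a call needed. Runx3 had 1.60 in Thy_4 and 1.39 in Thy_1, the next highest Thy column, a ratio of 1.15, and was not called. Whether either factor acts on these genes was not tested.

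Granule genes gave a divided picture. Of 14 measured members of the granule and killing list, 6 were higher and 0 lower, against 1.45% of all genes higher and 0.254% lower, with a median log2 ratio of 1.27. Nkg7, a membrane protein of cytotoxic granules, had a level of 15.7 in Thy_4, against 5.06 in Thy_1, 0.736 in Thy_2, 1.67 in Thy_3 and 1.04 in Thy_5, and at most 0.679 outside the thymus. Gzmb, the granzyme that cleaves caspases in target cells, had 2.98 in Thy_4, against 0.183 in Thy_1, 1.25 in Thy_2, 0.270 in Thy_3 and 0.0165 in Thy_5, with 1.49 in Skin. Serpinb9, an inhibitor of granzyme B, had 1.88 in Thy_4 and 0.817 in Thy_3, the next highest Thy column, and its relative Serpinb6b had 1.86 in Thy_4 and 0.374 in Thy_3. Fasl, the ligand of the death receptor Fas, had 0.646 in Thy_4 and 0.133 in Thy_3. These 5 genes were thus 2.3 to 4.96 times above every other Thy column, well short of the largest receptor ratios.

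The sixth, Gzmc, had a level of 1.93 in Thy_4 and 0.0905 in Thy_2, was listed at 0 in Thy_1, Thy_3 and Thy_5, and had 0.616 in Skin. It encodes granzyme C, an orphan granzyme whose gene is close to Gzmb, and the 2 are similar enough that reads may be shared. In the authors' deposited table, Gzmc was detected in 3.3% of Thy_4 cells, so the mean rests on few cells. The thymus library holds 16 Gzmc UMIs (unique molecular identifiers, 1 per captured transcript) in 12 cells. If all of them lay in the 131 thymus cells that most resembled Thy_4 (described further on), their mean would be at most 0.567 per 10000. The pooled library holds 62 Gzmc UMIs in 33 cells and the skin library 90 in 32 cells. Of 2695 genes compared in this way, only Gzmc and Dapk2 had a Thy_4 level above the limit, Dapk2 with 0.912 against a limit of 0.603. Dapk2, a death-associated protein kinase, was among the 54 genes called higher.

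Granzyme A did not mark Thy_4 among the thymus clusters, and perforin was too low to read in any Thy column. Prf1, the pore former without which granzymes do not reach the target cell, was listed at 0 in Thy_4, and at 0.0141 in Thy_1, 0.0125 in Thy_2, 0.0440 in Thy_3 and 0.0318 in Thy_5. Gzma had a level of 1.99 in Thy_4, against 8.22 in Thy_1, 0.983 in Thy_2, 0.681 in Thy_3 and 24.8 in Thy_5, so 2 of the other 4 Thy columns held more of it. Ctsw, a protease of killer lymphocytes, had 3.35 in Thy_4 but also 2.67 in Thy_3, and Srgn, the proteoglycan core of granules, had 13.4 in Thy_4, against 10.3 to 15.4 in the other Thy columns and 53.6 in Skin. Cst7, Lamp1 and Ctsd were not called either. Although 6 of 14 granule genes were higher, against 1.45% of all genes, Gzma was higher in 2 other Thy columns and perforin was not readable. The cluster is therefore named here by its column, Thy_4, and by its leading genes, not as a cytotoxic type.

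The type 1 programme, the T helper 1 and NK-like set around interferon-γ, had 0 of 12 measured members called in either direction, with a median log2 ratio of 0.77. Ifng itself had a level of 0.50 in Thy_4, against 0.0370 in Thy_1 and 0.400 in Thy_3, and was listed at 0 in Thy_2, Thy_5 and all 3 columns outside the thymus. Il2rb, the receptor chain shared by interleukin-2 and interleukin-15, had 2.34 in Thy_4, against 2.10 in Thy_2 and 0.879 in Thy_1. Ifngr1, the interferon-γ receptor, had 15.9 in Thy_4 and 15.2 in Thy_1, and Id2, a transcriptional regulator of innate lymphocytes, had 4.96 in Thy_4 and 13.1 in Thy_3. None of these 4 separated Thy_4 from its nearest Thy column by 2-fold.

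Transcripts of the T cell receptor complex were at the level of the other thymus clusters. Cd3e had a level of 9.62 in Thy_4, against 10.6 in Thy_1, 11.4 in Thy_2, 8.93 in Thy_3 and 8.09 in Thy_5. Cd3d had 11.4 in Thy_4, against 9.86 to 12.2 in the other Thy columns, and Cd3g had 16.4 in Thy_4, against 13.8 to 30.9. Of 13 measured genes of the receptor complex and its proximal kinases, 1 was higher, Fcer1g, and 0 were lower, against 1.45% and 0.254% of all genes. Receptor segment genes are not analysed here.

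Marker genes of other cells were checked over whole lists. For NK cells and type 1 innate lymphoid cells, 5 of 8 markers were in the table, all above 0 in Thy_4. They summed to 13.5 in Thy_4, against 0.169 to 0.724 in the other Thy columns and 0.373 to 0.921 outside the thymus. Ncr1, Eomes and Klra8 of that list are not analysed here, and Fcer1g alone made up 6.70 of the Thy_4 sum. Whether NK cells had part in the column was not tested in the means, and the CD3 transcripts in single cells are given further on. For αβ T cells and thymocytes, 5 of 7 markers were in the table and summed to 0.461 in Thy_4, against 0.299 to 10.3 in the other Thy columns, with Ptcra listed at 0 in Thy_4. B cell markers (3 of 6 in the table, 1 of them at 0) summed to 0.770 in Thy_4, against 0.341 to 1.02, and those of dendritic cells and macrophages (7 of 9, 3 of them at 0) to 2.44, against 2.39 to 4.34. Keratinocyte markers (3 of 7) summed to 1.03 in Thy_4, against 0.554 to 0.894 in the other Thy columns, mast cell markers (1 of 8) to 0.311, against 0.108 to 1.95, erythroid markers (3 of 5, 1 at 0) to 0.167, against 0 to 0.0401, and stromal markers (1 of 6) to 0.0794, against 0.235 to 0.548.

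The remaining lists held few genes called against the other Thy columns, where 1.45% of all genes were higher and 0.254% lower. Counts of 1 or 2 members are too small to set a list apart from these shares. Among circulation and naive-type genes 2 of 22 measured members were higher, Ly6c2 and Dapl1, and the median log2 ratio was 0.33. Ly6c2, a surface protein of memory T cells and monocytes, had a level of 1.62 in Thy_4 and 0.0506 in Thy_1, a ratio of 31.9. Dapl1, which encodes a death-associated protein-like protein, had 0.837 in Thy_4 and 0.173 in Thy_1. The regulators and homing receptors of naive-type cells did not join them: Ccr7 had 0.484 in Thy_4 and 2.47 in Thy_1, and Lef1 had 1.43 in Thy_4 and 4.23 in Thy_1. For both genes Thy_1 was the highest Thy column, and against Thy_1 alone 8 of 22 members of the list were 2-fold lower in Thy_4, against 6.45% of all genes. The 2 of 22 that were 2-fold higher are near the 5.61% of all genes. The remaining Thy columns went the other way. Against Thy_2 11 of 21 members were 2-fold higher in Thy_4 and 5 lower (9.53% and 9.37% of all genes). Thy_3 gave 11 of 22 higher and 2 lower (9.93% and 6.25%), and Thy_5 10 of 21 higher and 1 lower (13.2% and 14.9%).

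Among adhesion and cytoskeleton genes 2 of 25 were higher, against 1.45% of all genes, and the median log2 ratio was 0.67. Itgb2, the shared chain of leukocyte integrins, had a level of 2.22 in Thy_4 and 0.938 in Thy_3. Lgals3, the lectin galectin-3, had 6.35 in Thy_4, against 2.87 in Thy_3, 0.701 in Thy_2 and 5.35 in pLN_2, so pLN_2 nearly matched it. Of thymocyte maturation genes 1 of 19 was higher, and the median log2 ratio was -0.28. That gene was Ctla2a, a cathepsin inhibitor, with 9.73 in Thy_4, against 2.67 in Thy_1, 0.378 in Thy_2, 4.81 in Thy_3 and 0.776 in Thy_5. Its ratio of 2.02 was the closest to the limit of all 54 and dropped to 1.99 with median-of-ratios scaling and to 1.86 without mitochondrial and ribosomal protein genes. Immediate early genes had 1 of 19 higher, Dusp2, a phosphatase that turns off MAP kinases, with 1.92 in Thy_4 and 0.688 in Thy_3, and a list median of 0.56.

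Activation and checkpoint genes had 0 of 13 higher and 1 lower, against 1.45% and 0.254% of all genes, with a median log2 ratio of 0.43. The lower one was Tnfsf11 (RANKL), which γδ T cells and other cells of the thymus use to mature the epithelium, with a level of 0.261 in Thy_4, against 1.06 in Thy_1, 1.07 in Thy_2, 0.581 in Thy_3 and 0.526 in Thy_5. The call was lost with median-of-ratios scaling, at a ratio of 0.522, and with 0.1 added to each mean, at 0.576. No member was called in the lists of chemokine and egress receptors (0 of 11, median 0.79), the IL-17 programme (0 of 28, median -0.047), PLZF-type genes (0 of 8, median -0.38), heat shock (0 of 12, median 0.19) and type I interferon (0 of 17, median -0.16). The same held for MHC class I (0 of 16, median 0.16), the Bcl2 family and survival (0 of 7, median 0.080), cell cycle (0 of 19, median 0.066) and glycolysis and hypoxia (0 of 13, median 0.051).

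Some high genes belong to no list. Car2, a carbonic anhydrase, had a level of 1.60 in Thy_4 and 0.0873 in Thy_1 and was listed at 0 in Skin, pLN_1 and pLN_2. Pglyrp1, a peptidoglycan recognition protein of neutrophils and NK cells, had 1.87 in Thy_4 and 0.562 in Thy_3. Pik3r1, the regulatory subunit of PI3 kinase, had 3.85 in Thy_4, against 1.47 in Thy_3, and Klhdc2, a substrate receptor of a ubiquitin ligase, had 2.34 in Thy_4 and 0.936 in Thy_1. The genes just inside the 2-fold limit were Ctla2a at 2.02, Efhd2 at 2.07, Ugp2 at 2.17, Sult2b1 at 2.19 and Lgals3 at 2.21. Those just outside were Lrmp at 1.91, Tiprl at 1.88, Ctsc at 1.82, Gimap5 at 1.81 and Litaf at 1.79.

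The 7 genes called lower shared no list and were of modest size. Besides Tnfsf11 they were Sumo3, Tcf25, AI467606, Cnot6, Paxbp1 and Pdha1. Sumo3, a ubiquitin-like modifier, had a level of 0.492 in Thy_4, against 1.5 in Thy_1, 1.11 in Thy_2, 1.65 in Thy_3 and 2.36 in Thy_5. Tcf25 had 0.533 in Thy_4 and 1.22 in Thy_2, the lowest other Thy column, and Pdha1, a subunit of pyruvate dehydrogenase, had 0.304 in Thy_4 and 0.658 in Thy_3. All 7 had under 0.6 per 10000 in Thy_4, where a mean over an unstated number of cells is least precise. Bclaf1, Grb2, Lmo4, Ndufs8, Srpk1 and 8 more of the 15 named genes with the lowest ratios stood at 0.519 to 0.693 of the lowest other Thy column and were not called.

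**Figure D4:**
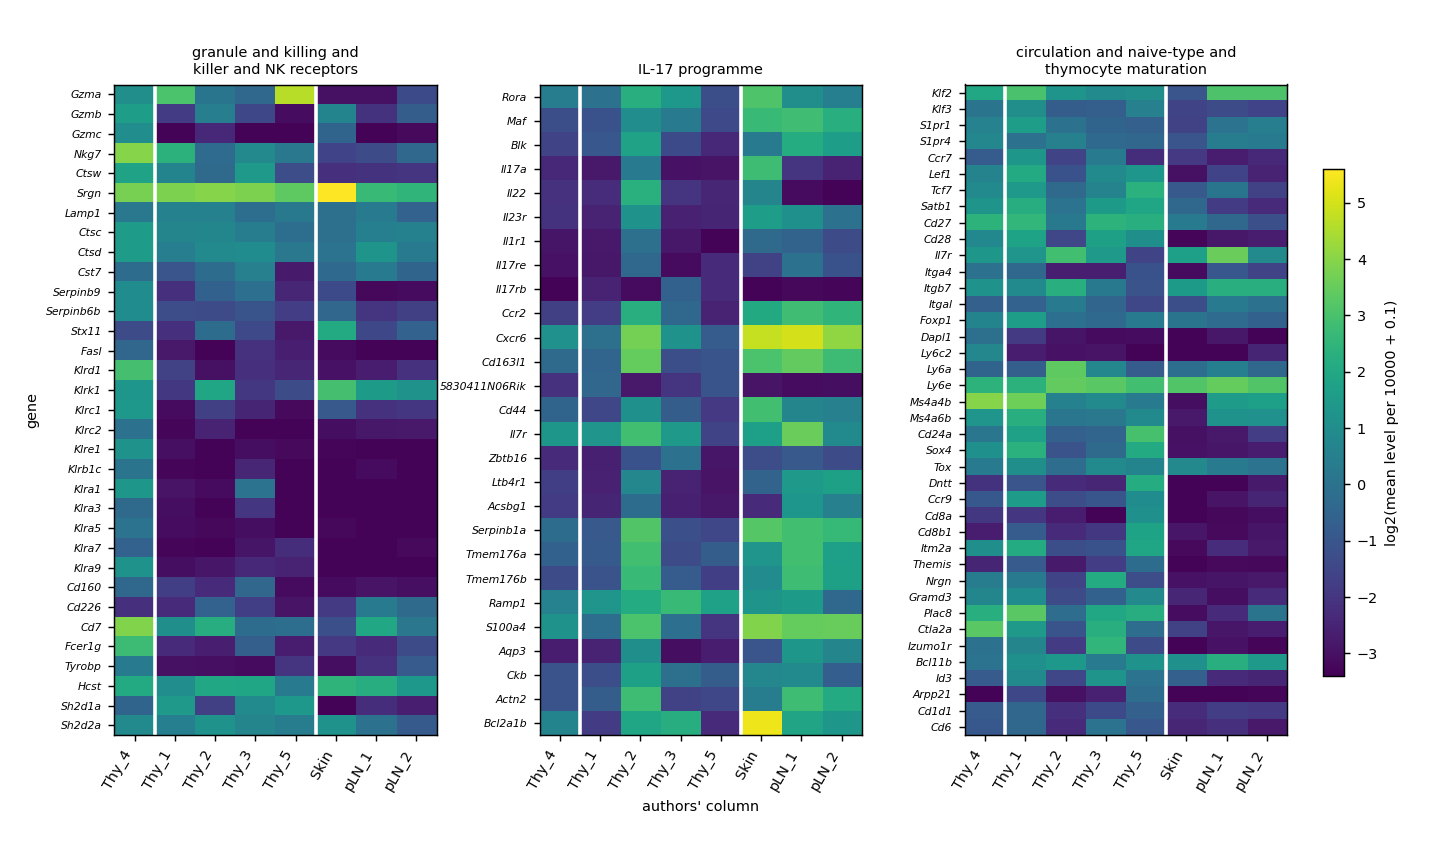
Colour gives log2 of the mean level per 10000 plus 0.1, on 1 scale for all panels, for measured genes (rows, a few left out) in Thy_4 (leftmost), the other 4 Thy columns and Skin, pLN_1 and pLN_2 (right), with white lines between these blocks. In the left panel the Klr genes other than Klrk1 are brighter in Thy_4 than in any other column, in the middle panel genes such as Cxcr6, Cd163l1 and Serpinb1a are darker in Thy_4 than in Thy_2 and the 3 columns outside the thymus, and in the right panel Ms4a4b is bright in Thy_4 and Thy_1.

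Pair by pair, Thy_4 was most like Thy_1 and least like pLN_2. Across 4267 genes, which are not replicates, the correlation of log2 levels with Thy_4 was 0.917 for Thy_1, 0.903 for Thy_3, 0.868 for Thy_2 and 0.831 for Thy_5. Outside the thymus it was 0.769 for pLN_1, 0.749 for Skin and 0.739 for pLN_2. The order held over the 3962 genes outside all lists, from 0.936 for Thy_1 to 0.778 for pLN_2. Against Thy_1 alone 174 of 3103 genes were higher (5.61%) and 200 lower (6.45%). Against Thy_2 293 of 3073 genes were higher (9.53%) and 288 lower (9.37%). Thy_3 gave 302 of 3042 higher (9.93%) and 190 lower (6.25%), and Thy_5 gave 430 of 3261 higher (13.2%) and 487 lower (14.9%). Thy_5 was thus the most distant of the thymus columns by both measures. It was also the column with the highest αβ and thymocyte marker sum, 10.3.

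The other thymus columns differed from Thy_4 in different gene groups. Of the 25 IL-17 programme genes measured against Thy_2, 25 were 2-fold lower in Thy_4, against 9.37% of all genes, and 0 higher. Cd163l1 (SCART1), a scavenger receptor of IL-17 γδ T cells, had a level of 0.727 in Thy_4, against 11 in Thy_2 and 0.319 to 0.631 in the remaining Thy columns. Il23r, the receptor for interleukin-23, had 0.137 in Thy_4 and 2.21 in Thy_2. Against Thy_1 the same list gave 4 of 11 higher and 1 lower (5.61% of all genes were higher than in Thy_1 and 6.45% lower). Of thymocyte maturation genes, 10 of 18 were 2-fold lower in Thy_4 than in Thy_5 and 3 were higher, against 14.9% of all genes lower and 13.2% higher. Against Thy_1, 7 of 14 were lower in Thy_4 and 1 higher. Ccr9, a homing receptor of thymocytes, had 0.427 in Thy_4, against 2.78 in Thy_1 and 1.85 in Thy_5. Cd24a, a marker of immature thymocytes, had 0.984 in Thy_4, against 3.28 in Thy_1 and 7.73 in Thy_5.

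Turning to the columns outside the thymus, 212 of 3904 genes were at least 2-fold higher in Thy_4 than in each of Skin, pLN_1 and pLN_2 (5.43%), and 87 of 2839 were lower than in each (3.06%). Against Skin alone 710 of 3205 were higher (22.2%) and 513 lower (16.0%). Against pLN_1 506 of 3361 were higher (15.1%) and 580 lower (17.3%), and against pLN_2 619 of 3358 were higher (18.4%) and 687 lower (20.5%). The median log2 ratio over all genes was 0.22 against Skin, -0.11 against pLN_1 and -0.12 against pLN_2, so a ratio to Skin carries that general shift. Mitochondrial and ribosomal protein genes together held 2375 per 10000 in Thy_4, against 2210 in Skin, 2183 in pLN_1 and 1972 in pLN_2.

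The killer receptors kept their contrast here, with 15 of 22 members in the table higher than in each column outside the thymus and 0 lower. Of all genes, 5.43% were higher and 3.06% lower. Their levels summed to 53.9 in Thy_4, against 6.56 to 15.7 in the other Thy columns, 16.7 in Skin, 14.4 in pLN_1 and 8.48 in pLN_2. Granule genes gave 8 of 18 members in the table higher and 0 lower, against the same 5.43% and 3.06%. Gzma was among the 8, because its level of 1.99 in Thy_4 faced 0.0261 in Skin, 0.0262 in pLN_1 and 0.283 in pLN_2, although it was lower in Thy_4 than in Thy_1 and Thy_5. Ctsw, at 3.35 in Thy_4 and at most 0.141 outside the thymus, behaved likewise.

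Other genes high in Thy_4 against the columns outside the thymus were shared with other thymus clusters. Circulation and naive-type genes gave 10 of 26 higher, against 5.43% of all genes, and 0 lower, and thymocyte maturation genes 8 of 23 higher and 1 lower. Ms4a4b, a membrane protein of T cells, had a level of 15.5 in Thy_4, against 12.1 in Thy_1, 1.37 in Thy_2, 1.74 in Thy_3, 1.13 in Thy_5, 0.0206 in Skin, 2.91 in pLN_1 and 3.13 in pLN_2. Cd27, a co-stimulatory receptor of γδ T cells that lack the IL-17 programme, had 5.26 in Thy_4, against 5.79 in Thy_1, 1.08 in Thy_2, 5.24 in Thy_3 and 4.59 in Thy_5, with 0.338 to 1.17 outside the thymus. Lck, the kinase that starts T cell receptor signalling, had 4.18 in Thy_4, against 4.01 to 4.95 in Thy_1, Thy_3 and Thy_5, 0.709 in Thy_2 and at most 0.235 outside the thymus. For Cd27 and Lck, Thy_2 lay nearer to the columns outside the thymus than to Thy_4. Ctla2a, Ctla2b, Hspb1, Prkch and Trf were also among the 8 highest ratios, with Ctla2a at 9.73 in Thy_4 and at most 0.221 outside. Hspb1, a small heat shock protein, had 1.91 in Thy_4 and 1.91 in Thy_3, and Trf, transferrin, had 2.11 in Thy_4 and 4.82 in Thy_3, so Thy_3 matched or passed Thy_4 in these 2.

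The genes low in Thy_4 against Skin and both pLN columns were led by the IL-17 programme, with 14 of 31 members lower, against 3.06% of all genes, and 0 higher. Cxcr6, a receptor of tissue-resident T cells, had a level of 2.13 in Thy_4, against 27.7 in Skin, 32.1 in pLN_1 and 16.9 in pLN_2. Maf, a factor that IL-17 γδ T cells require, had 0.326 in Thy_4, against 6.34 in Skin, 7.0 in pLN_1 and 4.70 in pLN_2. Serpinb1a, an elastase inhibitor of these cells, had 0.769 in Thy_4, against 9.33 in Skin, 7.31 in pLN_1 and 6.16 in pLN_2. For each of these 3 the Thy_2 level lay above that of Thy_4, with Cxcr6 at 13.1, Maf at 1.92 and Serpinb1a at 8.80. Ccr2, a receptor for entry into inflamed tissue, had 0.211 in Thy_4, against 4.08 in Skin, 7.08 in pLN_1 and 5.48 in pLN_2. Tnfrsf25 had 0.109 in Thy_4 and at least 1.03 outside the thymus, and Ero1l had 0.106 in Thy_4 and at least 1.53. Bcl2a1a, an anti-apoptotic gene with near-identical copies, was listed at 0 in Thy_4 and had 5.78 in Skin, 1.18 in pLN_1 and 1.01 in pLN_2.

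The deposited UMI matrices carry no map from cells to clusters, so cells of 4 Vγ6 libraries were matched to the 8 columns. Genes outside all lists (10324) placed each cell on the column of highest multinomial likelihood, and the list genes were then read out. The thymus library had 2517 kept cells and 6607432 UMIs, with a median of 2156 per cell, and the pooled library 2006 kept cells, 2960908 UMIs and a median of 1303.5. The libraries shared 2 to 12 cell barcodes pairwise. Of 2490 placed thymus cells, 131 were closest to Thy_4, or 5.26% (exact 95% interval 4.42 to 6.21), beside 1252 for Thy_1, 631 for Thy_2, 190 for Thy_3 and 270 for Thy_5. Fitting the mean profile of the whole library as a mixture of the 5 Thy columns gave Thy_4 7.91%. Of the 139 kept thymus cells closest to Thy_4, 18 had a log likelihood lead under 10 over the next column. In the pooled library 59 of 1953 placed cells were closest to Thy_4, or 3.02% (2.31 to 3.88), against 5 of 685 in the skin library and 2 of 1452 in the pLN library. The pooled share is less certain: 33 of the 71 kept cells closest to Thy_4 had a lead under 10, and with all genes placing the cells the share was 7.15%. A mixture of the 8 columns gave the pooled library 0.534% of Thy_4, or 8.20% without genes over 50 per 10000. Intervals cover counting error only, and which libraries' cells entered the Thy_4 column is not given in the sources used here. No doublet caller was run, and 130 thymus cells were left when those over 3 times the median UMIs were dropped.

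Over 383 list genes that had no part in placing them, the 131 thymus cells had a summed profile that correlated at 0.979 with the Thy_4 column and at 0.549 to 0.840 with the other columns. For the 59 pooled cells the values were 0.856 for Thy_4 and 0.436 to 0.676 for the others. The columns may be means of these same cells, and some of the 383 genes were named for being high in Thy_4. This likeness and the ratios below therefore describe the matched cells and give no independent support. The ratios below pool the cells closest to any of the other 4 Thy columns. They are therefore not ratios to the highest of these columns, as the column ratios above are. In CPM, UMIs scaled to the sum of the cells read out, Ccl5 stood at 4004 in the 131 cells (1046 UMIs), against 107 in the thymus cells closest to other Thy columns (664 UMIs), a ratio of 37.5 (95% counting interval 34.0 to 41.4). The pooled library gave Ccl5 3768 CPM, against 170, a ratio of 22.2 (18.3 to 26.9). For Klrd1 the ratio was 30.9 (24.9 to 38.5) in the thymus library and 16.6 (10.8 to 25.4) in the pooled library. Both libraries thus placed these genes more than 10-fold higher in the cells closest to Thy_4. Klre1 gave 66.1 in the thymus library and 49.3 in the pooled one, and Klrc1 gave 28.6 in the thymus library and 59.98 in the pooled one. Fcer1g gave 24.98 in the thymus library and 13.7 in the pooled one, and Xcl1 gave 18.5 and 8.12 in the same order.

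**Figure D5:**
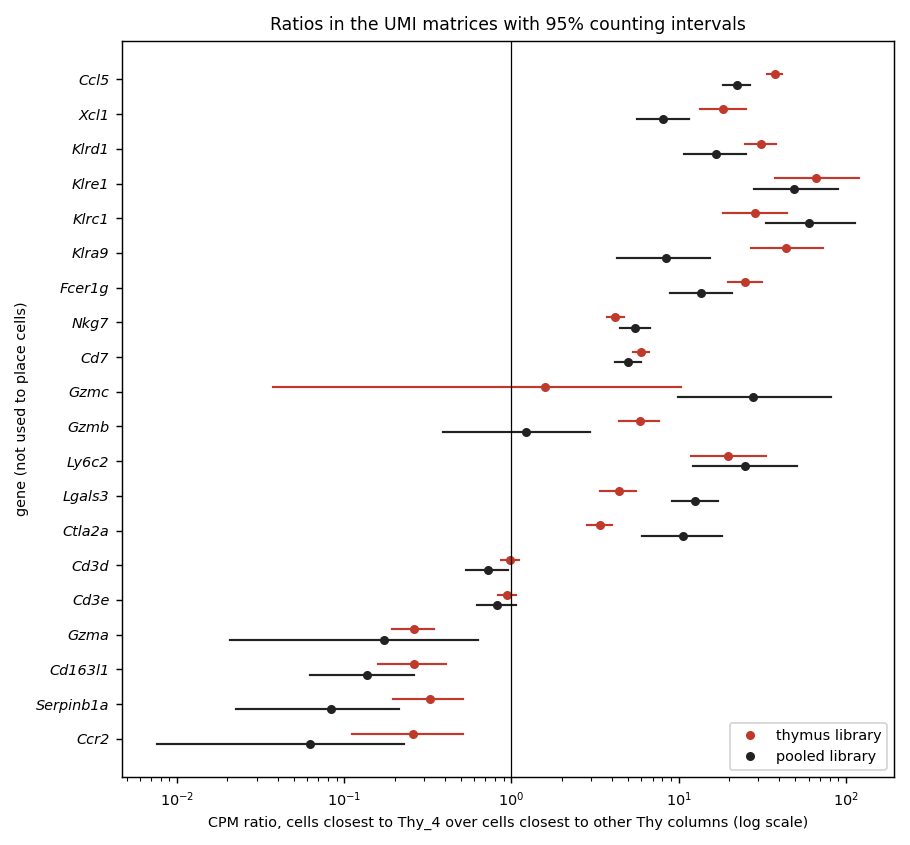
Points give the ratio of CPM in cells closest to Thy_4 over cells closest to the other 4 Thy columns, on a log axis, in the thymus library (red) and the pooled library (black), with lines for the 95% counting interval. Receptor and chemokine genes lie far to the right of 1 in both libraries, and Gzma, Cd163l1, Serpinb1a and Ccr2 to the left. Cd3d and Cd3e lie near 1 in the thymus library and below it in the pooled library.

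Not every gene repeated in the pooled cells. Gzmb had a ratio of 5.84 (4.38 to 7.68) in the thymus library but 1.23 (0.389 to 2.97) on 5 UMIs in the pooled library. Gzmc had 1 UMI in the 131 thymus cells, a ratio of 1.59 (0.0377 to 10.3), and 10 UMIs in the 59 pooled cells, a ratio of 27.9 (9.91 to 81.3). For both granzymes 1 of the libraries had few UMIs, and the difference between libraries was not tested. Gzma had ratios of 0.260 (0.192 to 0.345) in the thymus library and 0.172 (0.0208 to 0.629) in the pooled library. The pooled value rests on 2 UMIs and was 2.40 when all genes placed the cells, so no direction is read from it. Prf1 had 0 UMIs in both sets of cells, with an interval of the thymus ratio from 0 to 8.57, so a difference in perforin was not detectable at this depth. Tbx21 had 5 UMIs in the 131 cells and 11 in the other thymus cells, a ratio of 10.8 (2.95 to 33.8). Ifng had 11 UMIs in the 131 cells and 33 in the other thymus cells, a ratio of 7.93 (3.62 to 16.1). The Tbx21 and Ifng ratios pool all other Thy columns. In the authors' means the Ifng level of Thy_3 came near that of Thy_4, and neither gene was called.

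The receptors and the T cell receptor complex were read in the same cells. Of the 131 thymus cells, 128 had a Cd3d, Cd3e or Cd3g UMI, or 97.7% (exact interval 93.5 to 99.5), against 2334 of 2343 cells closest to the other Thy columns, or 99.6%. A UMI of any of 12 receptor and adaptor genes was in 116 of the 131 cells, and 114 of these 116 also had a CD3 UMI. The 71 cells with a Klrd1 UMI all had one. The thymus CPM ratio was 0.980 (0.867 to 1.10) for Cd3d, 0.942 (0.826 to 1.07) for Cd3e and 0.786 (0.707 to 0.872) for Cd3g. In the pooled library it was 0.724 (0.535 to 0.959) for Cd3d, 0.820 (0.624 to 1.06) for Cd3e and 0.685 (0.565 to 0.825) for Cd3g. Cd3g was thus lower in the cells closest to Thy_4 in both libraries, and Cd3d in the pooled one. In the pooled library 57 of the 59 cells had a CD3 UMI, among them 21 of the 21 with a Klrd1 UMI. NK cells lack a T cell receptor, but can carry messenger RNA of CD3 chains.

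Class II genes of antigen-presenting cells were uneven in the placed cells. Cd74, the invariant chain of class II molecules, had 104 UMIs in the 131 thymus cells and 391 in those closest to the other Thy columns, a ratio of 6.33 (5.05 to 7.88). H2-Aa gave a ratio of 9.36 (5.58 to 15.2) on 24 UMIs and H2-Ab1 6.11 (3.88 to 9.33) on 28, while H2-Eb1 gave 1.36 (0.158 to 5.29) and Cst3, a protease inhibitor abundant in dendritic cells, 0.942 (0.70 to 1.24). Lyz2, the lysozyme of macrophages, had 0 UMIs in the 131 cells. A UMI of H2-Aa, H2-Ab1 or H2-Eb1 was in 8 of the 131 cells (6.11%) and in 142 of the 2343 others (6.06%), so the excess lay in few cells. Without these cells, a setting chosen after seeing the data, the ratio was 1.11 (0.565 to 1.97) for Cd74, 36.8 (33.3 to 40.8) for Ccl5 and 30.5 (24.5 to 38.2) for Klrd1. In the 59 pooled cells Cd74 had 1 UMI, and H2-Aa and H2-Ab1 had 0.

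Detection of the leading genes was read per cell, where a gene of low level is missed in many cells at this depth. A Ccl5 UMI was in 67.9% of them, against 17.8% of the cells closest to the other Thy columns, where free RNA could also leave one. The median depth was 1648 UMIs in the cells closest to Thy_4 and 2195 in the others. With each cell thinned to 1000 UMIs, Ccl5 was in 56.5% of the cells closest to Thy_4 and 8.51% of the others, with 7 shallower cells of the 131 and 64 of the others left out. A Klrd1 UMI was in 54.2% of the cells closest to Thy_4 and 3.97% of the others, and after thinning in 41.1% of the cells closest to Thy_4 and 1.84% of the others. Gzma went the other way, with a UMI in 16.8% of the 131 cells and 38.5% of the others. Ccl5 and Klrd1 were detected together in 49 cells, Ccl5 without Klrd1 in 40, Klrd1 without Ccl5 in 22 and neither in 20. A Klrd1 UMI was thus in 55.1% of cells with Ccl5 and in 52.4% of those without, a small gap. Of 8 genes (Ccl5, Klrd1, Fcer1g, Nkg7, Xcl1, Klrc1, Klre1 and Tyrobp), 96 of the 131 cells had 2 to 4, 13 had 0 or 1 and 22 had 5 or more. How far depth sets these counts was not tested.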

How the data were processed

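Vγ6 γδ T cells of mouse ear skin, peripheral lymph node and thymus, and a pool of these tissues, were measured by droplet RNA sequencing with the Chromium 3' v2 kit, per the labels. The submitters' processing notes name Cell Ranger 2.0, Seurat 2.3 and mm10, without a role. The authors deposited a table of mean normalized expression per cluster, a signal that sums to 10000 in each column; how the clusters and means were made is not given in the sources used here. The authors deposited, in a marker table, the fraction of cells in which each gene was detected, printed here as a percent; its fold changes and p-values were not used. The authors deposited raw UMI counts per gene and barcode for each library. The skin Vγ4 library was not used here.

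The 8 columns were used as deposited. Ratios of means were called at 2-fold with at least 0.5 per 10000 in the higher value; log2 list medians used a pseudocount of 0.1. Genes named were Ccl5, the 25 highest ratios to the highest other Thy column with at least 1 per 10000 in Thy_4, the 15 lowest ratios to the lowest other Thy column among genes with at least 1 per 10000 in that column, the 8 highest and 8 lowest ratios to Skin, pLN_1 and pLN_2, and up to 4 members of each list; other genes named are list members, or were picked after their values had been seen. The gene lists, the markers and the genes described were chosen with earlier results of these data known. Barcodes with at least 200 genes and at most 10% mitochondrial UMIs were kept. Cells were placed with 0.05 per 10000 added to each mean, and those with a log likelihood lead under 3 were set aside. The placement script was tested on simulated data: of 2000 cells drawn from the columns themselves, all 281 drawn from Thy_4 returned to it, which says nothing of how well real cells match the columns. Poisson and Clopper-Pearson intervals are 95% and cover counting error only. Gene positions came from GENCODE vM21 and promoters from RefSeq (GRCm38.p6). Python 3.11.15, numpy 2.4.6, pandas 2.3.3, scipy 1.17.1 and matplotlib 3.10.9 were used. A few genes are not reported here. Alternatives were the minimum level, pseudocounts, the scaling of columns, the comparator, the genes and filters behind the placement of cells, thinning to 1000 UMIs and, added after seeing the data, leaving out cells with a class II UMI.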

Additional observations from a re-analysis of the deposited data

How the results depend on the processing

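With 1 library per group no result has a replicate error, the cluster means come without cell numbers, and low means may rest on few cells. Counts of genes followed the minimum level: of 92 counts recomputed, 42 moved by more than 1.5 times, most of them with the minimum. At a minimum of 1 per 10000, 29 genes were higher and 2 lower against the other 4 Thy columns, all among the 54 and 7. Pair by pair the counts higher and lower were then 82 and 80 against Thy_1, 137 and 152 against Thy_2, 136 and 71 against Thy_3, 215 and 220 against Thy_5, 326 and 328 against Skin, 274 and 293 against pLN_1, 319 and 393 against pLN_2, and 110 and 45 against these 3 at once. At a minimum of 0.2 they were 130 and 77 against the other 4 Thy columns, 415 and 589 against Thy_1, 710 and 662 against Thy_2, 749 and 575 against Thy_3, 889 and 1066 against Thy_5, 1421 and 924 against Skin, 909 and 1174 against pLN_1, 1157 and 1221 against pLN_2, and 409 and 217 against these 3. With 0.1 added to each mean, 3 genes were lower against the other 4 Thy columns and 123 against Thy_1. Without mitochondrial and ribosomal protein genes, 24 were lower against the other 4 Thy columns and 382 against Thy_3. Against the mean of the other 4 Thy columns, 149 were higher and 143 lower, the 54 and 7 among them. The causes were not tested beyond what each setting removes or adds.

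Of 430 recomputed ratios of named genes in the columns, 422 stayed on their side of 2-fold. With all genes placing the cells, 7.15% of pooled cells were closest to Thy_4, and the pooled ratio of Gzma reversed to 2.40; the cause was not tested. Without genes over 50 per 10000, the mixture gave Thy_4 6.41% of the thymus library. Of 108 recomputed CPM ratios, 94 stayed within their counting interval, the 12 without class II cells among them, and 13 moved beyond it, in either direction. No paired analysis was possible because each group has 1 library.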
